A study of Mus musculus with 8 samples.

Results

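REST is the zinc-finger repressor that keeps neuronal genes silent outside neurons, and its transcript and those of 9 corepressor genes were described in mouse oligodendrocyte progenitors given Cre to delete the genes of the histone methyltransferases EHMT1 and EHMT2. The 10 genes were taken by symbol from the deposited gene table and were Rest, Rcor1, Rcor2, Rcor3, Kdm1a, Hdac1, Hdac2, Sin3a, Sin3b and Ctdsp1. They are 10 of 24155 genes listed, and all 10 were among the 18102 genes tested. Progenitors, the dividing glial cells that mature into myelinating oligodendrocytes, were immunopanned from Ehmt1fl/fl;Ehmt2fl/fl pups of both sexes at P7 (postnatal day 7) and cultured with the mitogens bFGF (20 ng/mL) and PDGF-AA (10 ng/mL). The control group was infected with the adenovirus Ad-RFP, which carries a red fluorescent protein, and the cKO group with Ad-RFP-iCre, which also carries Cre recombinase. Both groups therefore carried the floxed alleles and the fluorescent protein, and both were exposed to virus for 6 hours at a multiplicity of infection of 10 and collected at 72 hours after infection. Each group had 4 libraries, numbered 1, 3, 4 and 6, and each number names a batch with 1 library of either group. The labels do not say whether batches came from separate animals, so p-values measure the spread between these pairs of libraries, which may be partly technical. Cre came from a virus applied to the whole dish, so a bulk library mixes recombined cells with any that were not.

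REST binds a DNA element called RE1 beside neuronal genes and recruits corepressors through both of its ends. Its N-terminal end binds the SIN3 scaffolds with HDAC1 and HDAC2, which remove acetyl groups from histones. Its C-terminal end binds the CoREST scaffolds (Rcor1, Rcor2 and Rcor3), which hold the same deacetylases and the histone demethylase LSD1 (Kdm1a). EHMT2 can be joined to this complex through the chromodomain protein CDYL and adds a repressive methyl mark to histone H3. CTDSP1 is a phosphatase that works with REST at neuronal genes. REST normally falls as neurons form, while glial progenitors keep it.

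Totals ran from 43542742 to 65374488 estimated counts per library. The targeted genes checked the labels. In CPM (counts scaled to a common library size), Ehmt1 was at 95.5 ± 5.58 in control and at 41.5 ± 3.98 in cKO libraries, and Ehmt2 at 177 ± 17.1 and 58.4 ± 5.86 (SD over 4 libraries). The test used throughout was edgeR's quasi-likelihood test with a block for each pair. Log2 fold changes were -1.20 ± 0.04 (SE, Benjamini-Hochberg adjusted p = 7.4e-08) for Ehmt1 and -1.60 ± 0.03 (adjusted p = 2.2e-09) for Ehmt2. The summed level of 10 progenitor markers, among them Pdgfra, Olig2 and Sox10, ran from 9099.0 to 14175.3 CPM in control and from 8401.0 to 12754.6 CPM in cKO libraries. Over all 18102 genes, 10% rose and 10.4% fell past an adjusted p of 0.05 in the blocked fit, and the median log2 fold change was -0.01. The share that fell was 14.1% among genes between 10 and 100 CPM in control and 24.7% among genes over 100 CPM, the levels at which the REST genes lie. Without the block, 3 of the 18102 genes passed and 893 lay under an unadjusted p of 0.05, so nearly every call below rests on the pairing.

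None of the 10 REST genes rose, 3 fell and 7 did not pass the test in either direction. Those that fell were Ctdsp1, Rcor2 and Sin3a, to 81.4%, 82.8% and 92.4% of control. The 10 had a median log2 fold change of -0.05. All 3 that fell were among the 8 members between 10 and 100 CPM, and neither member over 100 CPM (Kdm1a and Hdac2) passed. Without the block 0 of the 10 passed and 1 lay under an unadjusted p of 0.05. In the plot of the 10 genes by pair, the lines of Ctdsp1, Rcor2 and Sin3a slope down in all 4 pairs while those of Rest lie close to level except in replicate 3.

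**Figure D1:**
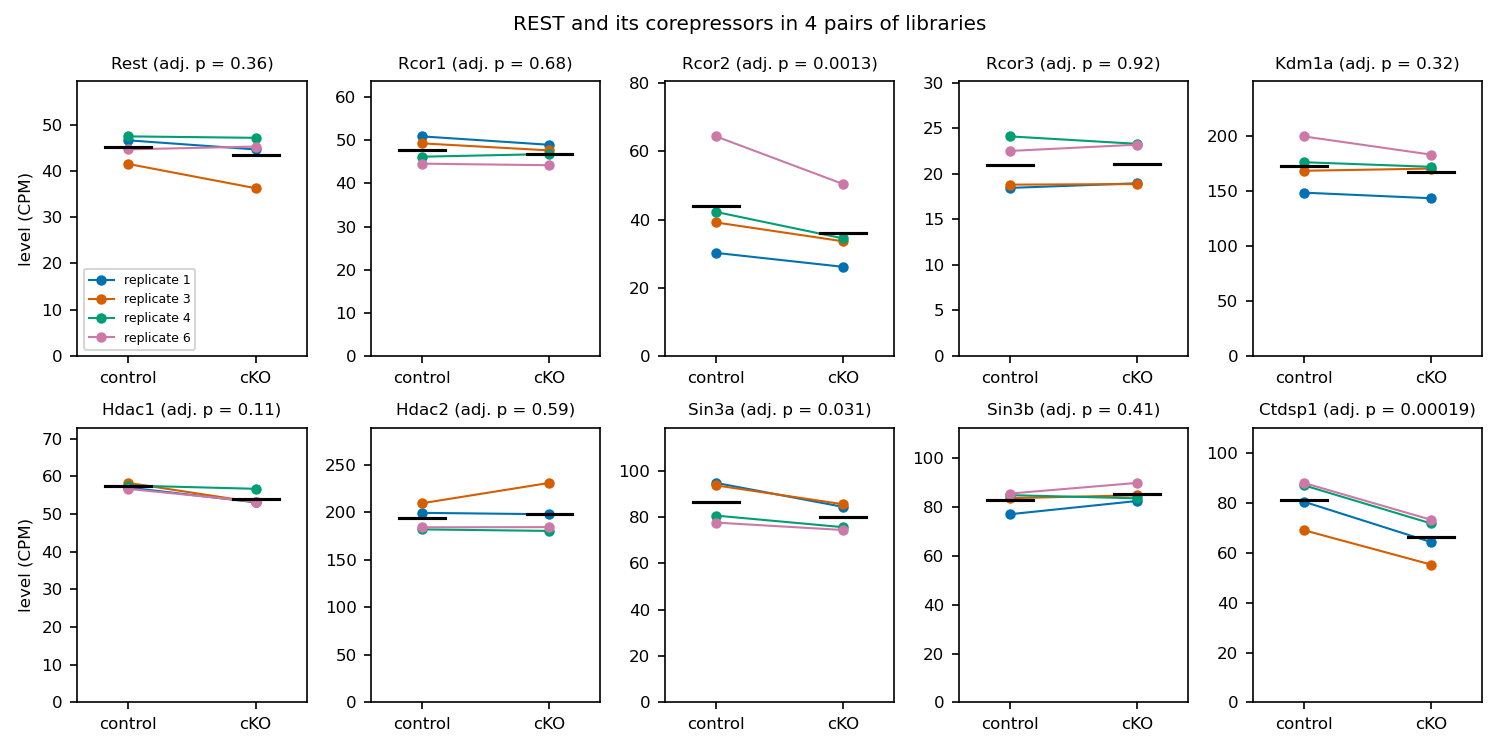
Level of each of the 10 genes in CPM (vertical axes, starting at 0) in control and cKO libraries, with a line for each pair and a black bar for the group mean of 4 libraries; the edgeR adjusted p of the blocked fit stands above each panel. Ctdsp1, Rcor2 and Sin3a are lower in cKO in 4 of 4 pairs, and Rest is at 95.8%, 87.4%, 99.3% and 101.4% of control in pairs 1, 3, 4 and 6.

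The repressor itself came first. Rest (chromosome 5, 77265491 to 77286432, mm10, plus strand, protein-coding) was at 46.6, 41.5, 47.5 and 44.6 CPM in control replicates 1, 3, 4 and 6 and at 44.6, 36.3, 47.1 and 45.2 CPM in the cKO replicates of the same numbers. The groups overlapped, and the lowest library was the cKO library of replicate 3, whose control partner was also the lowest of its group. The log2 fold change was -0.06 ± 0.04 (SE), with an edgeR adjusted p of 0.364 and a 95% interval of -0.16 to 0.04. Leaving out a pair moved it between -0.09 (without replicate 6) and -0.01 (without replicate 3), with no call in any of the 4 fits. On a linear scale the cKO level was 95.9% of control, with an interval from 89.8% to 102.5%. A fall of Rest transcript to the 32.9% of control seen for Ehmt2 lies outside that interval, while falls down to 89.8% of control lie within it. Counts were summed over the whole gene, so full-length REST transcript and the truncated neuronal splice form cannot be told apart, and REST protein and its binding to DNA were not measured.

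Among the CoREST scaffolds, which link REST to LSD1, 1 of 3 fell. Rcor2 (chromosome 19, 7267325 to 7275225, plus strand), a paralog active in neural progenitors, was at 30.2, 39.2, 42.2 and 64.4 CPM in control replicates 1, 3, 4 and 6 and at 26.1, 33.6, 34.5 and 50.4 CPM in cKO. The ranges overlapped because batches differed more than groups, and the cKO library was the lower in 4 of 4 pairs. The log2 fold change was -0.27 ± 0.04 (SE, edgeR adjusted p = 0.00131, 95% interval -0.36 to -0.18). In bulk libraries, less RNA per cell and fewer cells that express a gene cannot be told apart, here and in every fall that follows. Rcor1 (chromosome 12, 111039351 to 111115901, plus strand), the founding CoREST scaffold, had means of 47.7 ± 2.87 CPM (control) and 46.9 ± 2.00 CPM (cKO) (SD, n = 4), a log2 fold change of -0.02 ± 0.04 (adjusted p = 0.681). Its 95% interval ran from -0.10 to 0.05, and it overlaps the gene models Gm48632 on the same strand and Gm46379 on the opposite one. Rcor3 (chromosome 1, 192098546 to 192138062, minus strand) averaged 20.97 ± 2.78 and 21.1 ± 2.50 CPM (log2 fold change 0.01 ± 0.05, adjusted p = 0.919), with an interval of -0.09 to 0.11. The gene model Gm10516 overlaps Rcor3 on the opposite strand. The sources used here do not give a strand setting for the counting, so reads of overlapping genes may be shared.

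Of the 3 genes for histone-modifying enzymes, none passed the test. Kdm1a (chromosome 4, 136550540 to 136602723, minus strand), the demethylase LSD1, had means of 173 ± 21.2 CPM (control) and 167 ± 16.9 CPM (cKO) (SD, n = 4; log2 fold change -0.05 ± 0.03, adjusted p = 0.317, 95% interval -0.12 to 0.02). It overlaps Luzp1 on the opposite strand and the gene model Gm12987 on its own strand. Hdac1 (chromosome 4, 129516104 to 129542713, minus strand) was at 57.0, 58.3, 57.6 and 56.7 CPM in control replicates 1, 3, 4 and 6 and at 53.1, 53.1, 56.7 and 53.3 CPM in cKO. Each cKO library was below its partner, by the least in replicate 4. The log2 fold change of Hdac1 was -0.09 ± 0.04, which missed the threshold (adjusted p = 0.107). Its own 95% interval, -0.16 to -0.01, lay below 0 (edgeR unadjusted p = 0.0319). Hdac2 (chromosome 10, 36974544 to 37001889, plus strand) averaged 194 ± 13.0 and 198 ± 22.9 CPM (log2 fold change 0.03 ± 0.03, adjusted p = 0.59, 95% interval -0.05 to 0.10), and its highest library, at 231 CPM, was the cKO library of replicate 3. Over both deacetylases the bounds of the 95% intervals lay between -0.16 and 0.10.

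Of the SIN3 scaffolds, which carry the deacetylases at the other end of REST, Sin3a passed and Sin3b did not. Sin3a (chromosome 9, 57072040 to 57128366, plus strand) was at 94.7, 93.6, 80.6 and 77.6 CPM in control replicates 1, 3, 4 and 6 and at 84.3, 85.5, 75.6 and 74.4 CPM in cKO. It was lower in 4 of 4 pairs, but the ranges of the groups overlapped. The log2 fold change was -0.11 ± 0.03 (SE, edgeR adjusted p = 0.0308), and the call was lost without replicate 1, 3 or 4 (adjusted p = 0.133, 0.119 and 0.12), with upper-quartile scaling (0.054) and in DESeq2 (0.0564). Man2c1os overlaps Sin3a on the opposite strand. Sin3b (chromosome 8, 72723285 to 72758201, plus strand) had means of 82.7 ± 3.88 CPM (control) and 85.2 ± 3.28 CPM (cKO) (SD, n = 4), and its log2 fold change was 0.04 ± 0.03 (adjusted p = 0.41, 95% interval -0.03 to 0.11).

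Ctdsp1, the phosphatase gene, fell by an amount whose interval overlapped that of Rcor2. Ctdsp1 (chromosome 1, 74391509 to 74397285, plus strand) was at 80.7, 69.2, 87.2 and 88.2 CPM in control replicates 1, 3, 4 and 6 and at 64.4, 55.4, 71.9 and 73.3 CPM in cKO. Every cKO library lay below its partner by a like amount, with within-pair log2 differences of -0.32, -0.32, -0.28 and -0.26, although the highest cKO libraries overlapped the lowest control library. The log2 fold change was -0.30 ± 0.03 (SE, edgeR adjusted p = 0.000193, 95% interval -0.37 to -0.23). Ctdsp1 and Rcor2 passed in each of the 4 fits that left out 1 pair. Without the block their adjusted p was 0.945 and 1.

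Per length of exon, each corepressor gene except Rcor3 had a higher control level than Rest. Length here is that of all annotated exons of a gene together (7222 bases for Rest and 13622 for Rcor3). The order may differ for the transcripts that are expressed. Control libraries gave 43.3 ± 2.91 CPM per kb of exon for Hdac2, 33.5 ± 4.09 for Kdm1a and 24.4 ± 2.62 for Ctdsp1 (SD, n = 4). The next in order were Hdac1 (16.7 ± 0.201), Sin3a (16.1 ± 1.64), Rcor2 (13.9 ± 4.60), Sin3b (11.3 ± 0.528) and Rcor1 (8.40 ± 0.506). Rest stood at 6.24 ± 0.367 CPM per kb, and Rcor3 was the lowest at 1.54 ± 0.204. The ranges of Hdac1 and Sin3a, of Sin3a and Rcor2 and of Rcor2 and Sin3b overlapped, and the other neighbours in this order did not. The 5 genes whose centred levels lay nearest to those of Rest over the 8 libraries were Pkd1, Ndst1, Rab34, Rab23 and Pptc7. Their root mean square distances from Rest in centred log2 CPM were 0.032, 0.036, 0.036, 0.042 and 0.048, against a median of 0.212 over 9562 genes of at least 10 CPM. This distance favours genes that, like Rest, vary little between libraries, and shared regulation was not tested.

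Of 46 further genes of the pathway, 4 rose, 15 fell and 27 did not pass, with a median log2 fold change of -0.06. Leaving out Ehmt1 and Ehmt2 themselves, 4 rose and 13 fell among 44 genes. Of those 44, 7 of the 25 genes between 10 and 100 CPM and 6 of the 17 genes over 100 CPM fell, against the 14.1% and 24.7% of all genes at those levels given above. The count of falls among the 46 depended on single pairs: it was 8, 4, 4 and 13 without replicates 1, 3, 4 and 6, and 3 of the 15 passed in all 4 of those fits. Those 3 were Ehmt1, Ehmt2 and Cdyl, so of the 13 falls outside the deleted genes 1 held in each fit.

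Among partners of CoREST and LSD1, 7 of 12 genes other than Ehmt1 and Ehmt2 fell (58.3%) and none rose, with a median of -0.11. Falls made up 10.4% of all genes tested, 14.1% of those between 10 and 100 CPM and 24.7% of those over 100 CPM. With Ehmt1 and Ehmt2 counted, 9 of 14 fell, and 5, 3, 4 and 7 did so without replicates 1, 3, 4 and 6. Cdyl, the bridge between REST and EHMT2, was at 20.6, 18.5, 29.0 and 19.5 CPM in control replicates 1, 3, 4 and 6 and at 18.01, 14.97, 20.8 and 13.7 CPM in cKO. It was lower in 4 of 4 pairs, with a log2 fold change of -0.37 ± 0.06 (SE, edgeR adjusted p = 0.00231). Phf21a, which encodes a histone reader of the LSD1 complex and overlaps Gm13785 on the same strand, fell by 0.13 on the log2 scale, from 87.8 to 80.2 CPM (adjusted p = 0.0138, and 0.0695 and 0.0708 without replicates 3 and 4). The other 5 that fell were Hmg20b and Zmym3, subunits of LSD1 complexes, the corepressors Ctbp1 and Ctbp2, and Wiz, a zinc-finger partner of EHMT1 and EHMT2.

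Of 13 partners of SIN3, 1 rose and 1 fell (7.69% each), against 10% and 10.4% of all genes tested. Arid4a rose from 50.6 to 56.0 CPM (log2 fold change 0.15 ± 0.04, edgeR adjusted p = 0.0272) and Sap30 fell from 21.7 to 19.0 CPM (-0.19 ± 0.05, adjusted p = 0.0187). Neither call held in every fit that left out a pair: Arid4a passed only without replicate 4, and Sap30 only without replicate 6. Of 11 other cofactors, 4 fell (36.4%) and none rose, where 24.7% of all genes over 100 CPM and 14.1% of those between 10 and 100 CPM fell. Ctdspl, a paralog of Ctdsp1, fell from 25.1 to 20.7 CPM (-0.28 ± 0.06, adjusted p = 0.0106, and 0.0741 without replicate 4) and overlaps Gm2415 on the opposite strand. Ctdsp2, another paralog, fell from 250.5 to 229.5 CPM (-0.13 ± 0.03, adjusted p = 0.0121, and 0.0815 and 0.0844 without replicates 3 and 4). The remodelling ATPase Smarca4 fell by 0.13 and the histone demethylase Kdm5c by 0.12 on the log2 scale (adjusted p = 0.0104 and 0.0129). Neither passed without replicate 3 or without replicate 4, and Kdm5c also did not pass without replicate 1 (edgeR adjusted p = 0.0561). Falls in this group numbered 3, 1, 0 and 5 without replicates 1, 3, 4 and 6.

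The larger rises lay among the 8 genes of REST turnover and splicing, where 3 rose and 1 fell. These shares of 37.5% and 12.5% stand beside 10% and 10.4% of all genes tested. Srrm4, which encodes the splicing factor that switches REST transcripts to a truncated neuronal form and is itself a REST target, was at 0.804, 1.34, 0.904 and 1.84 CPM in control replicates 1, 3, 4 and 6. It was at 2.41, 4.27, 2.51 and 4.31 CPM in the cKO replicates, so the groups did not overlap. Its log2 fold change was 1.48 ± 0.14 (SE, edgeR adjusted p = 9.1e-05). Gm42853 overlaps Srrm4 on the same strand and Srrm4os on the opposite one. The related Srrm3 rose from 3.36 ± 1.73 to 5.41 ± 2.75 CPM (SD of 4 libraries; 0.70 ± 0.11, adjusted p = 0.00193). Usp15, a deubiquitinase that acts on newly made REST and overlaps Gm47726 on the same strand, rose from 70.7 to 79.7 CPM (0.17 ± 0.03, adjusted p = 0.005). Csnk1e, a kinase that marks REST for degradation, fell by 0.10 on the log2 scale (adjusted p = 0.0371), a call lost in each of the 4 fits that left out a pair. The plot of the pathway shows Srrm4 and Srrm3 apart from the other genes, whose changes are under 0.5 on the log2 scale.

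**Figure D2:**
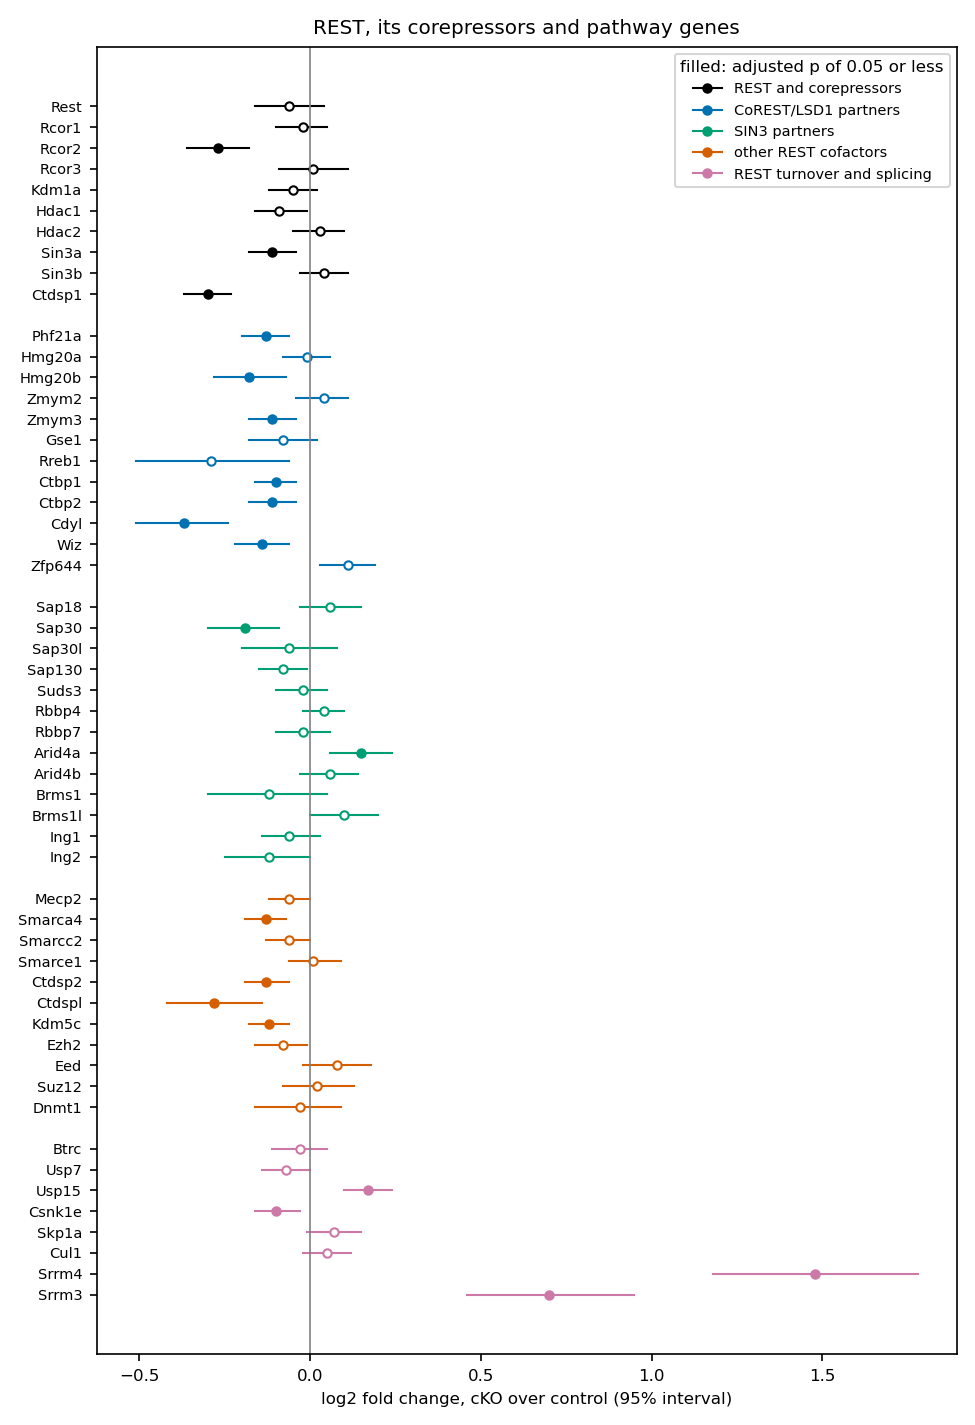
Log2 fold change of cKO over control (horizontal axis) with its 95% interval for the 10 REST genes and 44 pathway genes, Ehmt1 and Ehmt2 left out, from the blocked edgeR fit over 4 pairs. Filled points passed an adjusted p of 0.05; Srrm4 (1.48) and Srrm3 (0.70) lie to the right, and 3 of the 10 REST genes and 7 of the 12 partners of CoREST and LSD1 are filled and left of 0. Over all genes tested 10.4% fell.

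Genes that REST can bind were then defined by sequence, without use of any expression value. The RE1 core was written as the left part TTCAGCACC, 2 free bases and the right part GGACAG, and was searched on both strands in RefSeq promoter windows (GRCm38.p6, the same build as mm10) from 250 bases before to 50 bases after each start. At most 2 mismatches in the 15 fixed letters were allowed. Of 32851 windows, 47 (0.143%) held a core, in 45 of 27025 genes, and 4 windows (0.0122%) held it with no mismatch. The left part alone lies in 122 windows (0.371%) and the right part in 7286 (22.2%). They do not overlap each other. None of the 8 REST genes that have a window held a core, even with 3 mismatches allowed. A match is a description of letters, and binding was not measured.

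The 9 genes that held a core with at most 1 mismatch and rose are shown because they hold the element and changed in level. Each line gives the core with 12 bases on either side, 5′ to 3′ on the strand of the core, with the letters that match the element in capitals, and coordinates are those of the core alone.
Celsr3, chr9:108825918-108825934, plus strand: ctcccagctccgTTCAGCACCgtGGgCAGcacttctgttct
Osbp2, chr11:3774791-3774807, plus strand: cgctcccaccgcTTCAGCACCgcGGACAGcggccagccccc
Ogdhl, chr14:32321914-32321930, plus strand: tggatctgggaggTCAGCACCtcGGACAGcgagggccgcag
Fam163b, chr2:27142565-27142581, minus strand: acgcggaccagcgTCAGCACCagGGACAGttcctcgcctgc
Fbll1, chr11:35799056-35799072, plus strand: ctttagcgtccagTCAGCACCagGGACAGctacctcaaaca
Sptbn4, chr7:27396280-27396296, plus strand: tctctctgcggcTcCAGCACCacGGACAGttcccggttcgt
Syn1, chrX:20921134-20921150, minus strand: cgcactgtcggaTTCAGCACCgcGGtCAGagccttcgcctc
Dner, chr1:84696355-84696371, minus strand: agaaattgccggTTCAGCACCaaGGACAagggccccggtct
Gria2, chr3:80802989-80803005, plus strand: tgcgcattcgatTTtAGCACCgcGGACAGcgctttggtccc

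The 3 tested genes with a core of at most 1 mismatch that did not pass are shown for contrast, since their cores are as close to the element.
Ttc9b, chr7:27653942-27653958, minus strand: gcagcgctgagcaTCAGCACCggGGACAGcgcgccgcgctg
Scamp5, chr9:57468198-57468214, minus strand: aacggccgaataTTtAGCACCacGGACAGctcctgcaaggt
Crip2, chr12:113140081-113140097, plus strand: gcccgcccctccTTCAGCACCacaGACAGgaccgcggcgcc

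Osbp2 held the core with no mismatch and the other 11 with 1. Per the annotation, the cores of Osbp2 and Sptbn4 lie in introns and that of Ttc9b in a coding exon, and the other 9 lie upstream of the gene. The core of Celsr3 begins 127 bases before its RefSeq start.

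Of the 45 genes with the core, 32 were in the table and 25 were tested, and among those 12 rose and none fell. The median log2 fold change was 0.27, against -0.01 for all genes. With at most 1 mismatch, 9 of 12 rose and the median was 0.38. Among all 11751 tested genes with a promoter window, 10.9% rose. By control level, 2 of 3 core genes under 1 CPM rose, 5 of 6 between 1 and 10 CPM, 3 of 10 between 10 and 100 CPM and 2 of 6 over 100 CPM. The shares over all genes at those levels were 8.95%, 11.2%, 10.4% and 8.37%. With 3 mismatches allowed, 26 of 165 (15.8%) rose, 15 fell and the median was 0.02. Rises numbered 10, 8, 13 and 11 without replicates 1, 3, 4 and 6, and 7 of the 12 passed in all 4 of those fits. Without the block 0 of the 25 passed and 5 lay under an unadjusted p of 0.05.

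Celsr3, an atypical cadherin that guides axons, was at 5.96, 11.4, 13.7 and 25.0 CPM in control replicates 1, 3, 4 and 6 and at 30.02, 50.01, 46.9 and 59.97 CPM in cKO. The groups did not overlap, and the rise was 1.83 ± 0.20 on the log2 scale (SE, edgeR adjusted p = 0.00608). Ogdhl, which encodes a brain enzyme related to oxoglutarate dehydrogenase, was at 39.2, 36.3, 37.8 and 42.8 CPM in control and at 72.4, 53.2, 62.8 and 60.9 CPM in cKO (log2 fold change 0.67 ± 0.06, adjusted p = 0.000238). Every cKO library of both genes lay above every control library. Dnah1, an axonemal dynein heavy chain with 2 mismatches in its core, rose from 2.29 ± 0.549 to 8.29 ± 1.49 CPM (SD of 4 libraries; 1.86 ± 0.11, adjusted p = 7.8e-06) and overlaps Gm35823 on the opposite strand. Marchf4, a ubiquitin ligase gene, rose by 1.68 ± 0.17 and Tmem179 by 0.94 ± 0.13, and Fam163b by 1.52 ± 0.35 at a level under 1 CPM in either group. Smaller rises were those of Osbp2 (0.57), Fbll1 (0.57), the axonal spectrin gene Sptbn4 (0.49), the synaptic vesicle gene Syn1 (0.27), the Notch ligand gene Dner (0.21) and the AMPA receptor subunit gene Gria2 (0.12), with edgeR adjusted p from 0.00142 to 0.0404. Ttc9b (0.14 ± 0.10), Scamp5 (0.06 ± 0.03) and Crip2 (-0.03 ± 0.04) did not pass (adjusted p = 0.394, 0.258 and 0.694).

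**Figure D3:**
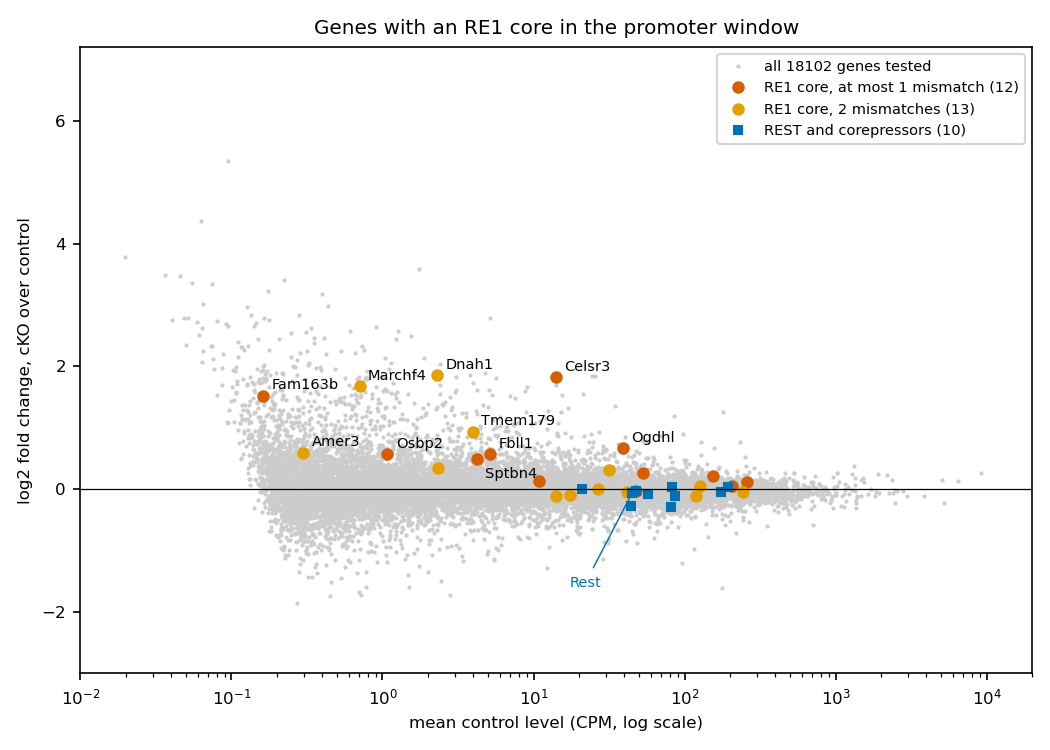
Log2 fold change of cKO over control (vertical axis) against mean control level in CPM (horizontal log axis) for all 18102 genes tested, from the blocked edgeR fit. The 12 genes with a core of at most 1 mismatch and the 13 with 2 mismatches are coloured; 12 of these 25 rose and none fell, while Rest and the 9 corepressor genes (squares) lie between -0.30 and 0.04.

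One further core was singled out after its values were seen. It lies in the window of the gene model Gm32659, within an intron of Snap25, 885 bases after the start of that gene (chromosome 2, 136713453 to 136782428, plus strand), and matches the element with no mismatch.
Snap25 intron, chr2:136714338-136714354, plus strand: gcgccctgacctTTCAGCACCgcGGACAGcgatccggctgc

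Snap25, a core protein of synaptic vesicle fusion, was at 4.72, 7.38, 7.22 and 8.71 CPM in control replicates 1, 3, 4 and 6 and at 17.6, 20.1, 19.9 and 21.9 CPM in cKO. The groups were far apart, with a log2 fold change of 1.52 ± 0.09 (SE, edgeR adjusted p = 8.0e-06; 0.063 without the block). The other 3 tested genes with a core of another gene's window inside them, Cacna1i (0.69), Serinc2 (0.57) and Gm960 (0.51), did not pass (adjusted p = 0.222, 0.43 and 0.231). Their cores had 2 mismatches each and lay 2648, 6148 and 72812 bases after the gene start, so they are not like that of Snap25.

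Of a list of 50 genes known as RE1 targets, 43 were in the table and 39 were tested. Of these 39, 21 rose (53.8%), 1 fell (2.56%) and 17 did not pass, with a median log2 fold change of 0.51 and 34 values above 0. Among all genes tested 10% rose and 10.4% fell. By control level, 5 of 7 targets rose under 1 CPM, 6 of 13 between 1 and 10 CPM, 9 of 15 between 10 and 100 CPM and 1 of 4 over 100 CPM. Over all genes at those levels 8.95%, 11.2%, 10.4% and 8.37% rose. The band of 10 to 100 CPM is that of Rest itself. Without replicates 1, 3, 4 and 6 the rises numbered 23, 18, 23 and 24, and 18 of the 21 passed in all 4 fits. Without the block 0 of the 39 passed and 16 lay under an unadjusted p of 0.05. Of the 35 listed targets with a promoter window, 3 held the core (Celsr3, Gria2 and Syn1), so the list and the sequence search are largely different genes. The search covered only the 300-base windows, so a listed target without a core there may hold one elsewhere. Snap25, a listed target, has its core in an intron and is not among the 3.

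The largest rises among the listed targets began at low control levels. Stmn2, a microtubule regulator of growing axons, was at 0.216, 0.163, 0.0159 and 0.189 CPM in control replicates 1, 3, 4 and 6 and at 1.81, 1.36, 0.336 and 0.452 CPM in cKO (log2 fold change 2.70 ± 0.37, edgeR adjusted p = 0.000911). Each cKO library lay above every control library, but replicates 4 and 6 rose to lower levels than 1 and 3. Calb1, a calcium buffer, rose by 2.21 ± 0.27 and the activity-induced factor gene Npas4 by 2.01 ± 0.32, both from under 1 CPM. Scg2, a granin of secretory vesicles, was at 4.74, 0.416, 7.15 and 2.95 CPM in control and 16.5, 3.73, 20.1 and 10.9 CPM in cKO (1.85 ± 0.19, adjusted p = 0.0013). It rose in 4 of 4 pairs, although batches differed so much that the groups overlapped. L1cam, a cell adhesion gene of axons, was at 0.980, 2.33, 8.15 and 4.51 CPM in control and 5.14, 6.61, 27.8 and 12.6 CPM in cKO (1.72 ± 0.12, adjusted p = 5.3e-05), and overlaps Arhgap4 on the same strand and Avpr2 on the opposite one. The same rule named Celsr3, Snap25 and Srrm4, given above. Others that rose included the receptor and channel genes Scn2a, Chrnb2, Grin1 and Gria2, the secretory genes Chga, Vgf and Pcsk2, and Syn1, Cdk5r2, Stmn3 and Ina. Among these, Syn1 overlaps Araf and Timp1, Chrnb2 overlaps Adar and Ina overlaps Nt5c2, all on the opposite strand. Grin1 overlaps Grin1os, and Pcsk2 overlaps Pcsk2os1 and Pcsk2os2, also on the opposite strand.

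Of the 4 tested targets over 100 CPM in control, 1 rose (Gria2) and 1 fell. Ntrk3, the receptor for neurotrophin-3, was the 1 target that fell, from 157 to 142 CPM (log2 fold change -0.15 ± 0.03, edgeR adjusted p = 0.011), and it passed only without replicate 6 when a pair was left out. Of the most abundant targets that did not pass, the granin Scg3 went from 123 to 139.5 CPM (0.21 ± 0.06, adjusted p = 0.064), the scaffold Mapk8ip1 from 121 to 128 CPM (0.09 ± 0.03, adjusted p = 0.0686) and the calcium channel gene Cacna1h from 39.8 to 38.2 CPM (-0.06 ± 0.05, adjusted p = 0.422). Disp2 went from 34.4 to 49.2 CPM but varied between pairs (0.54 ± 0.14, adjusted p = 0.0544). Its call was gained in DESeq2 (0.00962), in limma-voom (0.0431), with upper-quartile factors (0.049), with the filter at 1 CPM (0.0343) and without replicate 1 (0.000963). Scg3 passed in DESeq2 (0.0184) and without replicate 6 (0.0259), and Mapk8ip1 with upper-quartile factors (0.0409).

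The values of Rest and of its targets were set side by side within each pair, on the scale of log2(CPM + 0.5). The listed targets had median differences of 0.68, 0.55, 0.36 and 0.37 in pairs 1, 3, 4 and 6, and 37, 35, 33 and 34 of the 39 were higher in cKO. Rest differed by -0.06, -0.19, -0.01 and 0.02 in the same pairs. The 25 tested genes with the core had medians of 0.28, 0.36, 0.10 and 0.21, and 20, 20, 14 and 18 of them were higher. The 12 of these with at most 1 mismatch had medians of 0.47, 0.38, 0.20 and 0.22, and 12, 11, 10 and 9 were higher, while the median of all genes was between -0.01 and 0.00 in each pair. With 4 pairs no relation between the size of the Rest difference and that of the targets was tested. The plot of the pairs shows the target points spread upward in each pair with the square of Rest near 0.

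**Figure D4:**
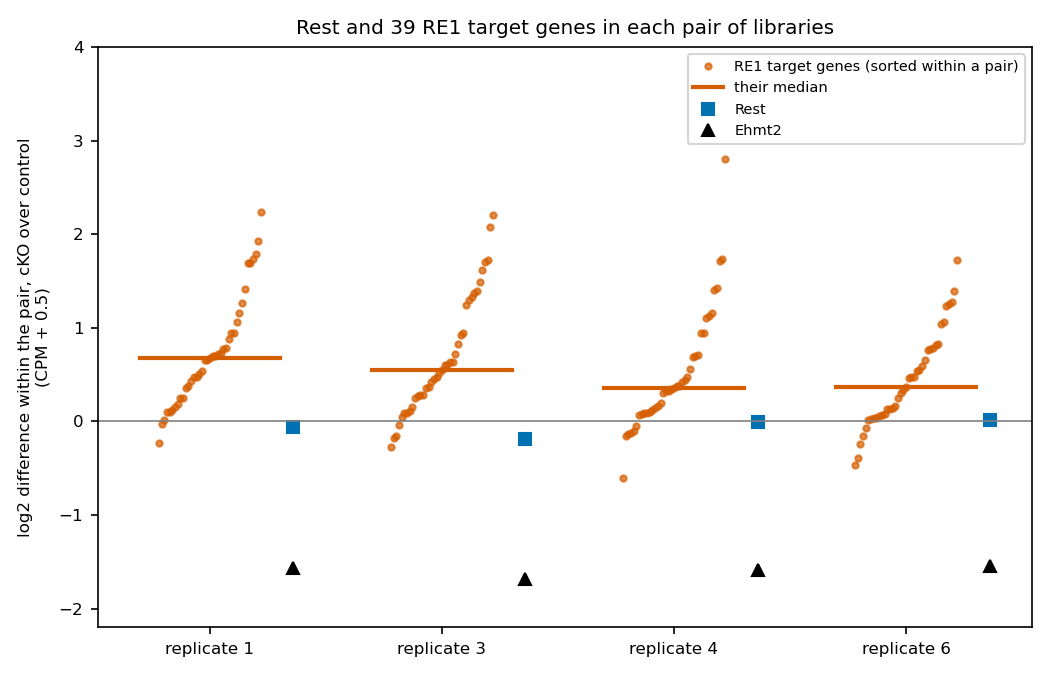
Log2 difference of cKO over control within each pair, computed on CPM + 0.5 (vertical axis), for the 39 tested RE1 target genes (points, sorted within a pair, with their median as a line), Rest (square) and Ehmt2 (triangle). Medians of the targets are 0.68, 0.55, 0.36 and 0.37 in pairs 1, 3, 4 and 6, and Rest lies between -0.19 and 0.02.

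Markers of neurons as a cell type were set beside these values. Of 19 tested neuron markers 9 rose (47.4%) and none fell, against 10% and 10.4% of all genes tested. Their median was 0.27, and 7, 6, 10 and 10 of them rose without replicates 1, 3, 4 and 6. Of the 5 that are listed RE1 targets or hold the core, 4 rose (Stmn2, Snap25, Syn1 and Ina) and Tubb3 did not pass. Of the other 14, 5 rose (Syt1, Nefl, Elavl4, Dcx and Celf4), with a median of 0.23, and the difference between these 2 parts was not tested. These 14 are not on the target list and had no core found in a promoter window, which does not show that they lack an RE1. Nefl overlaps Nefm and Celf4 overlaps Gm3227, both on the opposite strand. The summed level of the 23 markers in the table, most of it Map2, ran from 1081.8 to 1829.5 CPM in control and from 1219.1 to 1897.0 CPM in cKO and was higher in cKO in 4 of 4 pairs. Without Map2 it ran from 341.5 to 578.7 and from 469.1 to 671.9 CPM.

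Of 8 genes picked as defining mature neuron types, the 5 in the table were low in both groups. Rbfox3, which encodes the nuclear antigen NeuN, went from 1.56 ± 0.198 to 1.20 ± 0.379 CPM (SD of 4 libraries; log2 fold change -0.40 ± 0.17, edgeR adjusted p = 0.115). The transporter genes Slc17a7 and Slc32a1 of glutamate and GABA neurons averaged 0.190 and 0.0430 CPM in control and 0.145 and 0.0222 CPM in cKO. Gad2, which makes GABA, went from 0.0706 to 0.151 CPM and the cortical factor gene Tbr1 from 0.146 to 0.161 CPM, and these 4 were too low to be tested. Slc17a6, Neurod2 and Neurod6 were not analysed here. Gad1 and Neurod1, neuron markers outside the 8, went from 1.09 to 1.75 CPM and from 0.456 to 0.814 CPM. Their log2 fold changes were 0.66 ± 0.25 and 0.83 ± 0.27 (edgeR adjusted p = 0.102 and 0.0509). Eomes, another marker outside the 8, went the other way (-0.65 ± 0.32, adjusted p = 0.182). The summed level of the 5 defining genes ran from 1.82 to 2.33 CPM in control and from 1.29 to 2.17 CPM in cKO, and it was higher in cKO in 0 of 4 pairs. Most of that sum was Rbfox3, and without it the other 4 were higher in cKO in 1 of 4 pairs, while Gad2 and Tbr1 were each higher in 3 of 4.

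Markers of other stages moved as well. The 9 markers of myelinating cells summed to between 249.5 and 1942.4 CPM in control and between 309.7 and 2988.3 CPM in cKO, higher in 4 of 4 pairs. Of the 8 tested, 5 rose (62.5%). Among all genes tested 10% rose and 10.4% fell. The 10 progenitor markers summed lower in cKO in 4 of 4 pairs. Of these, 2 fell (Pdgfra and Ptprz1), 1 rose (Lhfpl3) and 7 did not pass, among them Olig2 and Sox10. Gpr17 made up a large part of the sum in replicates 4 and 6. It was at 5377.3 and 3904.5 CPM there in control and at 4286.4 and 2879.3 CPM in cKO. In replicates 1 and 3 it was higher in cKO, and its log2 fold change was -0.02 (edgeR adjusted p = 0.972). The 9 astrocyte markers summed to between 1232.2 and 2930.3 CPM in control and between 1150.3 and 2728.2 CPM in cKO, lower in 4 of 4 pairs. Of these 9, 3 fell (Slc1a3, the most abundant, Gja1 and Sox9) and 2 rose (Gfap and Aqp4), with a median log2 fold change of 0.05. Of 9 microglia markers 3 were in the table, at a sum of 13.45 to 18.15 CPM over the 8 libraries. The share of mitochondrial counts was higher in cKO in each pair, at 3.24%, 2.42%, 2.57% and 2.95% in control replicates 1, 3, 4 and 6 and at 3.63%, 2.999%, 3.17% and 3.45% in cKO. The share of CT010467.1, a single gene model, was lower in cKO in each pair, at 9.04%, 7.91%, 10.09% and 9.67% in control and 6.61%, 7.53%, 7.41% and 9.13% in cKO. Without it and the mitochondrial genes, the log2 fold change of Rest was -0.05. The part of these shifts in the changes of the REST genes and their targets was not tested.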

How the data were processed

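Polyadenylated RNA was measured in 8 libraries of cultured mouse progenitors, 4 control and 4 cKO. The submitters' processing notes name STAR, cutadapt, Partek, DESeq2 and the mm10 build; for versions, annotation and strand use, nothing is given in the sources used here. The table the authors deposited holds expected counts per gene, not normalized, of which 51.6% are not whole (tolerance 1e-06), as arises where reads are divided among features. Per the labels' protocols, RNA of integrity number 8 or more was captured on oligo-dT beads. The files were whole-gene sums, so isoforms were not resolved.

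Counts were rounded. Genes were kept by filterByExpr with a minimum count of 10, which left 18102. Counts were scaled by TMM and tested with edgeR 4.0.16 (glmQLFit robust, glmQLFTest, R 4.3.3), 2-sided, with p-values adjusted by Benjamini-Hochberg over the genes tested and a threshold of 0.05. The replicate number was a block, because the labels name a batch for each number. Centred on group means, control and cKO libraries of numbers 1, 3, 4 and 6 correlated at 0.79, 0.79, 0.76 and 0.75, against at most 0.39 across numbers. No library was a duplicate of another in its group. CPM are on TMM-scaled library sizes, intervals are 95% intervals of the fit, and exon lengths come from GENCODE. Log2 changes of 0.25, 0.5, 1 and 2 were simulated once, in 50, 49, 50 and 50 of 17811 genes. The fit recovered 48%, 77.6%, 84% and 100% of them, and 21 of 175 calls were false, above the nominal rate. In the data a larger share of genes was called (10% higher and 10.4% lower), so these rates may not carry over.

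Promoter windows are 300-base RefSeq windows. Alternatives were no block, RLE or upper-quartile factors, no filter, 1 CPM in 4 libraries, DESeq2 1.42.0, limma-voom 3.58.1, leaving out each pair, leaving out CT010467.1 and mitochondrial genes, and 1 or 3 mismatches. Named genes were the 10 REST genes, Ehmt1 and Ehmt2, and, past the threshold, up to 4 per direction and pathway list by smallest p. They were also the 8 higher and 4 lower targets and 6 higher and 4 lower core genes of largest change, up to 4 targets of highest control CPM that did not pass, 8 genes that define neurons and the 5 genes most like Rest. Further examples were picked with their values known. Some genes of the lists are counted but not reported here by name. The 10 genes, the lists and the tests were chosen with earlier results of these data known, among them rises of neuron genes, so the counts of neuronal lists are not independent support.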

Additional observations from a re-analysis of the deposited data

Results flagged for a closer look

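In 47 genes described above, the 4 libraries of each group were searched for 1 that stood apart, by the gap to its nearest neighbour over the group's range (Dixon's test at its 95% critical value). Of 94 groups 4 had such a library, and chance gives about 1 in 20. Hdac1 was at 56.7 CPM in cKO replicate 4, against 53.1 to 53.3 CPM in the other cKO libraries. Mapk8ip1 was lowest in the same library, at 119 CPM against 130 to 132 CPM. In cKO replicate 3, Calb1 was highest at 1.94 CPM against 1.10 to 1.15 CPM, and Rbfox3 was highest at 1.76 CPM against 0.952 to 1.06 CPM.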

How the results depend on the processing

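Nearly every call depends on the pairing: with no replicate block, the log2 fold changes of Rcor2 (-0.28), Sin3a (-0.12) and Ctdsp1 (-0.30) held their direction but none passed, and 0 REST genes fell. Without the block 0 pathway genes rose and 2 (Ehmt1 and Ehmt2) fell, 0 RE1 targets rose and 0 fell, and 0 core genes and 0 neuron markers rose. With the block and all pairs, 68 of 70 values of the 10 REST genes under other scaling, filters and tests held their direction and side of the threshold. The exceptions were Sin3a with upper-quartile factors (-0.10) and in DESeq2 (-0.12). Leaving out a pair, Rcor3 turned from 0.01 to -4.1e-04 without replicate 1 and -3.3e-03 without replicate 6, and Hdac2 from 0.03 to -4.0e-03 without replicate 3; neither was ever called. Over the 4 fits that left out a pair, Rest ran from -0.09 to -0.01, Kdm1a from -0.07 to -0.02, Rcor3 from -3.3e-03 to 0.04, Hdac2 from -4.0e-03 to 0.05 and Sin3a from -0.13 to -0.09, falls of pathway genes from 4 to 13 and falls of RE1 targets from 0 to 1. The cause of these changes was not tested. With 3 mismatches allowed, 26 core genes rose and 15 fell. Targets under 1 CPM rest on few reads, and the part of counting error in the spread between pairs was not tested.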
